A study of Mus musculus with 4 samples.

Results

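Cells that live with reactive oxygen carry a set of protective genes, and 41 of them were followed here in cells of the airspaces of bleomycin-treated mice. They were the transcription factor NRF2 with its regulators and targets, the glutathione and thioredoxin systems, superoxide dismutases and catalase, metallothioneins, genes of heme and iron handling, and Blmh, the gene of bleomycin hydrolase. The members were taken from a list of gene symbols and found on the arrays through the accession of each probe, with the brightest probe standing for a gene. All 41 were found among the 20832 genes that could be named, all 41 were well above background on all 4 arrays, and all 41 were among the 15410 genes tested.

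BALF cells, which are washed out of the airspaces of the lung, were collected on day 22 from mice given intraperitoneal bleomycin at 0.035 U/g 2 times weekly. Both genotypes, wild-type littermates and S1pr2-/- mice that lack sphingosine-1-phosphate receptor-2 in all cells, came from heterozygous parents of mixed strain with only 1 backcross to C57BL/6J, and the mice of the bleomycin model were 8 to 10 weeks old. RNA of each genotype was hybridized to 2 one-color whole mouse genome arrays, and all 4 arrays lay on 1 slide. The comparison asks how these genes differ between the genotypes under bleomycin, and no arrays of saline-treated mice were analysed here. Whether an array holds the RNA of 1 mouse or of more is not given in the sources used here, so p-values measure only the spread between these samples, and the small number of arrays limits the precision of every value below.

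NRF2, encoded by Nfe2l2, is held in the cytoplasm and sent for degradation by KEAP1; oxidants release it, and it then binds antioxidant response elements in genes of glutathione synthesis, thioredoxin reduction, NADPH supply and heme and iron handling. Alveolar macrophages clear particles, dying cells and red cells from the airspaces, which loads them with lipid, heme and iron, and they are rich in ferritin. Bleomycin damages DNA through an iron and oxygen dependent reaction, and bleomycin hydrolase inactivates the drug, an activity that is known to be low in lung.

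Each value below is log2 of the background-corrected signal over the 75th percentile of its array, so that 0 is a signal equal to that percentile, and each difference is the mean of the arrays labelled S1pr2-/- minus the mean of the wild-type arrays. The values of wild-type replicates 1 and 2 are given first. The probe of S1pr2 went against the labels: it read -0.13 and -0.16 in the wild-type arrays and 2.67 and 2.54 in those labelled S1pr2-/-, a difference of 2.75 ± 0.072 (SE, limma). Whether this probe lies inside the disrupted part of the gene is not given in the sources used here. The arrays are therefore called by their labels throughout, and every direction follows the labels. A difference between groups of BALF cells can come from fewer cells of a type or from less RNA per cell, which cannot be told apart in bulk RNA.

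No member passed an adjusted p under 0.05 in limma, where 0% of the 15410 genes passed it. At an unadjusted p under 0.05, 4 members were higher in the arrays labelled S1pr2-/- (9.76% of 41, against 4.56% of all genes tested) and 0 were lower (against 5.96%). The 4 were Nqo1, Gstm1, Gss and Slc40a1. The methods' t-test, run on these values, also gave 4 members higher and 0 lower before adjustment and 0 after it. The count of 4 was 2 without wild-type replicate 2 and 7 without S1pr2-/- replicate 1. An exact permutation test of 2 arrays against 2 cannot go below a two-sided p of 0.333, so none is given for single genes.

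Counted by whether the arrays overlapped, 18 members had both values of the arrays labelled S1pr2-/- above both wild-type values (43.9%, against 22.2% of all genes), 4 had both below (9.76%, against 21.9%), and 19 overlapped. The 18 were Sqstm1, Nqo1, Gstm1, Gstp1, Ephx1, Gclm, Gss, Gpx3, Gpx4, Txnrd1, Srxn1, Prdx1, Prdx5, Cat, Blvra, Slc11a1, Slc40a1 and Blmh, and the 4 were Gclc, Prdx6, Sod2 and Ftl1. Prdx6 and Ftl1 were lower on both arrays only by their brightest probe. The median difference over the 41 members was 0.12, and over all genes tested it was 0.00. This median was 0.044 when S1pr2-/- replicate 2 was left out. With 1 array left out, between 20 and 25 members were higher and between 5 and 11 lower, while the shares of all genes lay between 32.6% and 39.2% for higher and between 32.9% and 38.4% for lower. The differences of 7 members (Nqo1, Gstm1, Slc40a1, Gss, Prdx5, Txnrd1 and Gpx4) stayed within 1.5 times their value whichever array was left out, and those of the other 34 moved by more or turned in sign. The differences were small: only Gpx3, Slc11a1 and Nqo1 passed 1.5-fold higher (7.32% of members, against 1.28% of all genes), and 0 members passed 1.5-fold lower (against 4%).

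**Figure D1:**
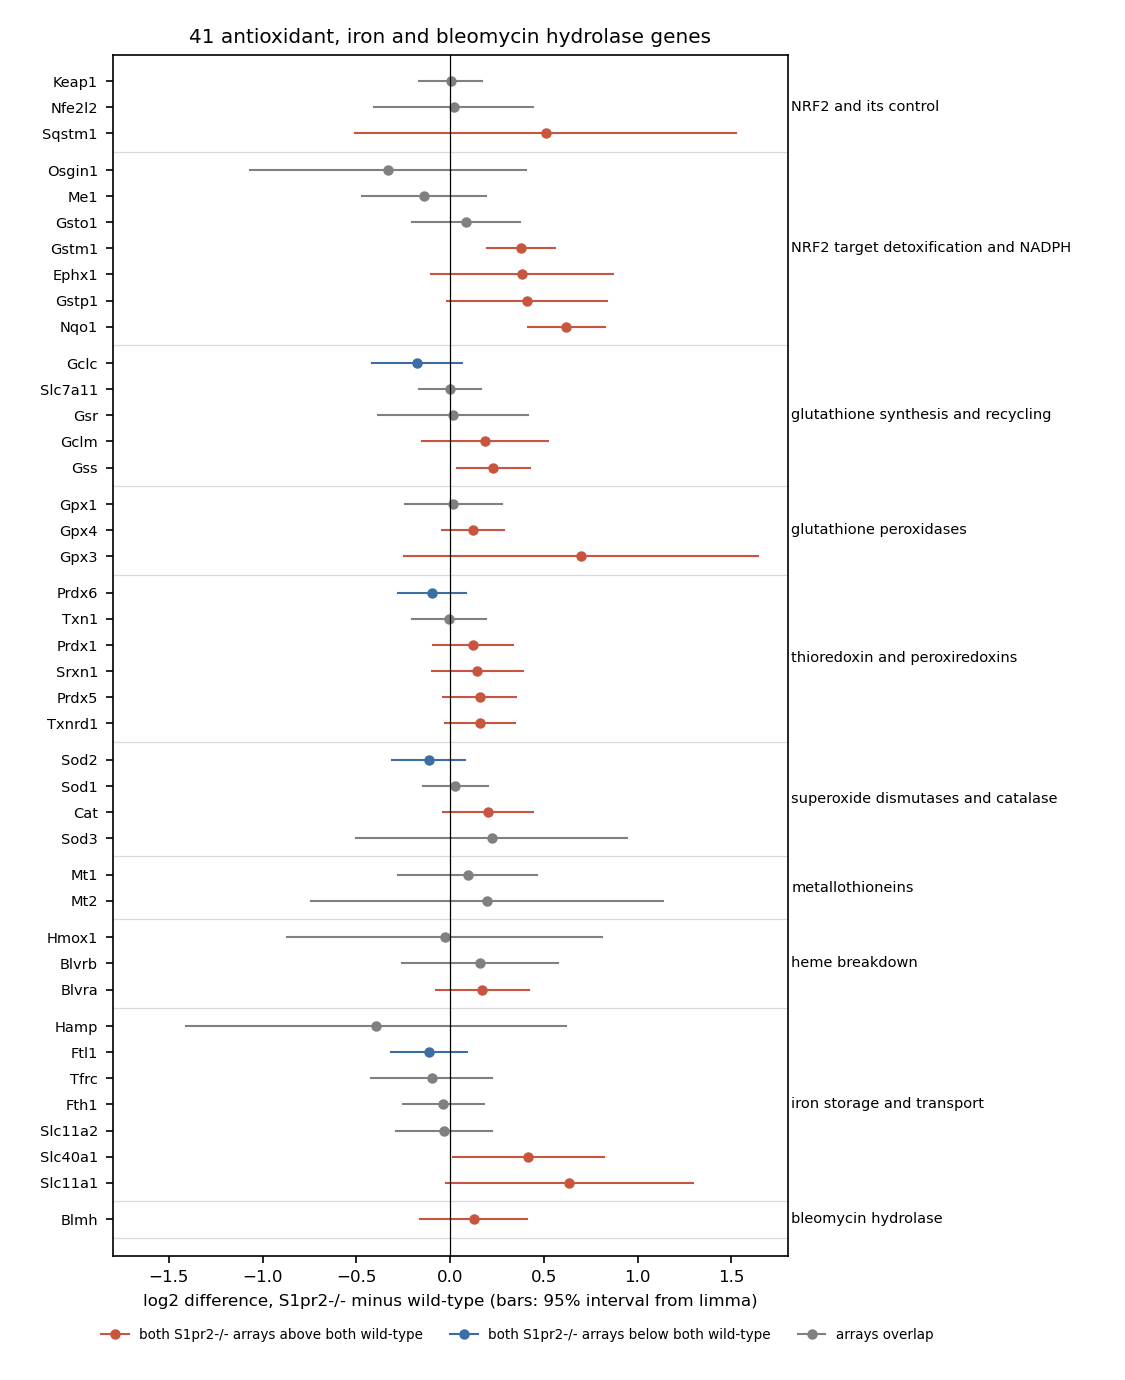
Difference of each of the 41 members (log2, arrays labelled S1pr2-/- minus wild-type, 2 arrays each) with its 95% interval from limma, grouped by role and colored by whether the arrays of the genotypes overlap. Intervals of 4 members (Nqo1, Gstm1, Gss and Slc40a1) lie above 0, and 0 intervals lie below it.

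The members' probes were bright, and 23 of the 41 fell in the top quintile of genes by probe brightness. In that quintile of 3082 genes, 21.1% were higher on both arrays labelled S1pr2-/- and 26% were lower; of the 23 members there, 8 were higher and 4 lower. In the next quintile, 25.5% of genes were higher, and so were 5 of the 7 members there.

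**Figure D2:**
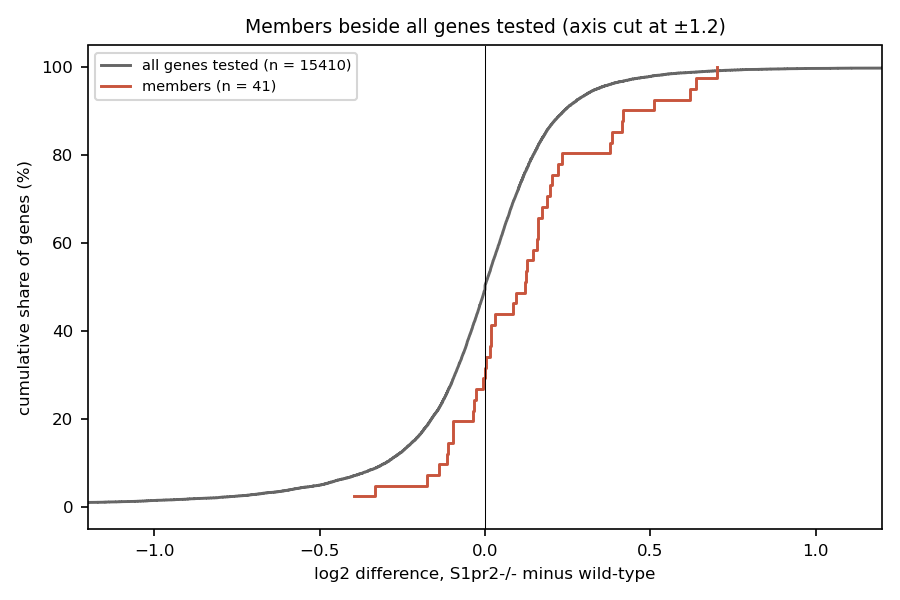
Cumulative share of genes (%) against the log2 difference, arrays labelled S1pr2-/- minus wild-type, for the 41 members and all 15410 genes tested, with the axis ending at -1.2 and 1.2. The curve of the members lies to the right of that of all genes over most of its range, with medians of 0.12 and 0.00.

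Neither NRF2 nor KEAP1 differed beyond the spread of its arrays. Nfe2l2 read 4.18 and 4.12 in the wild-type arrays and 4.33 and 4.01 in those labelled S1pr2-/-, so that the wild-type values lay between the others, and the difference was 0.02 with a 95% interval from -0.40 to 0.44. Keap1 read 1.84 and 1.86 against 1.84 and 1.87, a difference of 0.0034 with a 95% interval from -0.16 to 0.17. All 4 arrays of Keap1 thus lay within the spread of a single genotype. Sqstm1 encodes p62, an autophagy receptor that binds KEAP1 and is itself an NRF2 target. It read 0.96 and 1.08 in wild-type and 1.11 and 1.95 in the arrays labelled S1pr2-/-. The groups did not overlap, but 1 array carried the difference of 0.51 ± 0.335 (SE), which was 0.092 without S1pr2-/- replicate 2.

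Among the detoxification genes that NRF2 is known to drive, Nqo1 and Gstm1 stood out by how closely their replicates lay. Nqo1, a quinone reductase and the usual readout of NRF2 activity, read -3.41 and -3.47 in wild-type and -2.78 and -2.86 in the arrays labelled S1pr2-/-. Both of the latter were higher, by 1.54-fold on average, and the difference of 0.62 ± 0.067 (SE) had an unadjusted p of 0.00184 and an adjusted p of 0.509 in limma. Gstm1, a mu class glutathione transferase, read 4.63 and 4.59 against 4.97 and 5.02. Its groups were also apart, with a difference of 0.38 ± 0.059 (SE) and an adjusted p of 0.509 in limma. The other Gstm1 probe gave 0.76 ± 0.112 (SE), in the same direction and larger. Both Nqo1 and Gstm1 had an unadjusted p under 0.05 in all 18 settings tried, the one described here included, and the lowest adjusted p over the alternatives that kept all arrays was 0.293 for Nqo1 and 0.248 for Gstm1.

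The remaining detoxification members divided. Gstp1, the pi class transferase, read 1.53 and 1.42 in wild-type and 1.73 and 2.04 in the arrays labelled S1pr2-/-. Its difference was 0.41 ± 0.141 (SE), and its other probe gave 0.27. Ephx1, the microsomal epoxide hydrolase, read 3.79 and 4.09 against 4.44 and 4.21. Neither gene overlapped between the groups, and the 2 probes of Ephx1 gave 0.38 and 0.39. Without single arrays the difference of Gstp1 was as low as 0.26 (without S1pr2-/- replicate 2) and that of Ephx1 0.23 (without wild-type replicate 1). Gsto1, Me1 and Osgin1 overlapped, with differences of 0.08, -0.14 and -0.33. Me1 encodes malic enzyme, which makes NADPH, and Osgin1 an oxidative stress induced growth inhibitor. The Osgin1 wild-type arrays, at -0.61 and -0.06, lay on either side of the S1pr2-/- replicate 1 array at -0.53. Without wild-type replicate 2 the differences of Osgin1 and Me1 were -0.06 and -0.05.

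**Figure D3:**
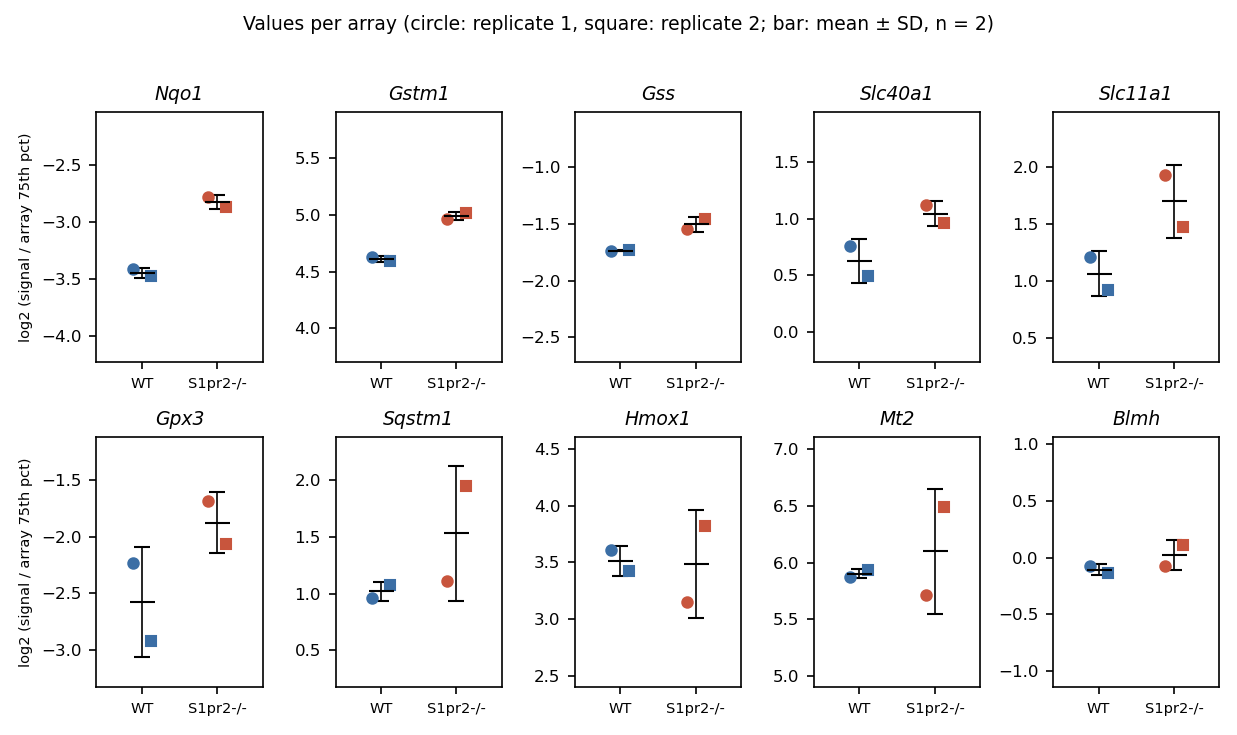
Values of 10 members on each array (log2 of signal over the 75th percentile of the array), with the mean and SD of 2 arrays per genotype; each panel has its own axis, all spanning the same range. Nqo1 and Gstm1 show close replicates and separate groups, whereas the arrays labelled S1pr2-/- lie far apart for Sqstm1, Hmox1 and Mt2.

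The promoters of the members were searched for the core of the antioxidant response element, TGACNNNGC, on both strands of the RefSeq window from 250 bases before to 50 bases after each transcription start (assembly GRCm38.p6). A window was found for 34 of the 41 members, and 10 of the 34 (29.4%) held the core, against 14% of 27025 genes. A gene with several windows was counted if any of them held the core. Because known NRF2 targets were put on the list, these shares describe the list and are not a result of the arrays. The stretches of 30 bases around these matches are shown because this core is the sequence that NRF2 is known to bind, each 5′ to 3′ on the strand of its gene, with the matched core in capitals. The core contains TGACTCA, the motif of the AP-1 factors, in 4 of the 10 windows.
Blmh (chr11:76945670-76945699, plus strand): ccgatggcgcTGACTCAGCaacgcgagggg
Blvra (chr2:127070598-127070627, plus strand): cacgggaattGCTCGGTCAaggctccgcct
Gclm (chr3:122245413-122245442, plus strand): gctcccgggcGCACCGTCAactctcacgag
Me1 (chr9:86695901-86695930, minus strand): gatgccgccgTGACTCAGCgcttctcgcgg
Mt2 (chr8:94172529-94172558, plus strand): aaagggggtgTGACTCAGCgcggggggtgg
Nfe2l2 (chr2:75704884-75704913, minus strand): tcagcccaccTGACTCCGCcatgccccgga
Prdx1 (chr4:116685456-116685485, plus strand): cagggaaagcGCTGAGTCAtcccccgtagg
Sod1 (chr16:90220696-90220725, plus strand): gccaaggtggGCGTGGTCAgactcaggcct
Srxn1 (chr2:152105542-152105571, plus strand): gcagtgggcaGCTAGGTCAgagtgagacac
Txnrd1 (chr10:82859104-82859133, plus strand): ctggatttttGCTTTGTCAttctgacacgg

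The matches in Blmh and Srxn1 began 25 and 29 bases after the start, counted with the first transcribed base as 1, and the others began before it. Of the 10 members with a core, 6 were higher on both arrays labelled S1pr2-/- (Blmh, Blvra, Gclm, Prdx1, Srxn1 and Txnrd1), 0 were lower and 4 overlapped, with a median difference of 0.14. Over all genes tested 22.2% were higher and 21.9% lower. Of the 24 members whose window held no core, 11 were higher, 2 lower and 11 overlapped, with a median of 0.11. Nqo1 and Gstm1 were among these 24. A match is a run of letters and not a measured binding site, and its absence speaks only of the window searched.

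The genes of glutathione synthesis differed by small amounts and not all one way. Gss, glutathione synthetase, which completes the tripeptide, read -1.74 and -1.73 in wild-type and -1.55 and -1.46 in the arrays labelled S1pr2-/-. Both of the latter were higher, with a difference of 0.23 ± 0.065 (SE) and an adjusted p of 0.515 in limma. Its unadjusted p was under 0.05 in 10 of the 18 settings, and with 1 array left out only without S1pr2-/- replicate 1. The 2 subunits of the rate-limiting glutamate-cysteine ligase went opposite ways: the modifier subunit Gclm read -1.12 and -1.14 against -1.07 and -0.82, and the catalytic subunit Gclc read 2.26 and 2.34 against 2.06 and 2.18. Neither subunit overlapped between the groups, and their differences were 0.19 ± 0.111 and -0.18 ± 0.079 (SE). That of Gclm was 0.062 without S1pr2-/- replicate 2, and that of Gclc was -0.11 without S1pr2-/- replicate 1. Slc7a11, the cystine importer that feeds the pathway, differed by 0.00077 with an interval from -0.16 to 0.17, and Gsr, which reduces oxidized glutathione, by 0.02 ± 0.132 (SE).

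Gpx3 had the largest difference among the 41 members and one of the widest intervals. This secreted glutathione peroxidase read -2.23 and -2.92 in wild-type and -1.69 and -2.07 in the arrays labelled S1pr2-/-. The groups did not overlap, but the lower wild-type array lay about as far from its partner as the group means from each other, and the difference of 0.70 ± 0.311 (SE) ran from 0.36 without wild-type replicate 2 to 1.04 without wild-type replicate 1. Gpx4, which reduces lipid peroxides in membranes and guards against ferroptosis, read 4.96 and 4.97 against 5.10 and 5.08. Its difference of 0.12 was small but stood clear of the spread within a genotype, with an adjusted p of 0.562 in limma. Gpx1, the cytosolic peroxidase, overlapped with a difference of 0.02.

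Since Gstm1 and Gstp1 belong to a large family, its other genes were read beside them, a choice made after their values were seen. Glutathione transferases join glutathione to electrophiles, and the microsomal Mgst enzymes do so at membranes. Of 21 genes listed, 20 were tested; 12 were higher on both arrays labelled S1pr2-/- (60%, against 22.2% of all genes), 1 was lower (5%, against 21.9%) and 7 overlapped. At an unadjusted p under 0.05 in limma 7 were higher (35%, against 4.56%) and 0 lower (against 5.96%), with 0 past an adjusted p under 0.05. Their median difference was 0.24, against 0.00 over all genes. These counts include the members Gstm1 and Gstp1 that prompted the choice, and Gsto1. Over the 17 tested transferases that are not members, 10 were higher (58.8%), 1 was lower (5.88%) and 6 overlapped. At that unadjusted p 6 of the 17 were higher (35.3%) and 0 lower. The counts describe the family, which was not tested as a set. In the mu class 5 of 6 tested genes were higher and 1 overlapped.

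Gstm3 read 0.54 and 0.48 in wild-type and 1.07 and 1.39 in the arrays labelled S1pr2-/-, a difference of 0.72 ± 0.138 (SE). For Gstm4 the values were -0.29 and -0.28 against 0.26 and 0.66, a difference of 0.75 ± 0.163 (SE). Gstm2 differed by 0.58 ± 0.233 (SE), a value that was 0.30 without S1pr2-/- replicate 2, and Gstm5 by 0.50 ± 0.077 (SE). In each of these 4 genes the groups were apart, while Gstm6, close to background, overlapped. All 3 microsomal genes were higher, by 0.20 for Mgst1, 0.45 for Mgst2 and 0.31 for Mgst3. Gstt1 was the 1 gene lower, at -2.74 and -2.60 against -2.79 and -3.18, and its difference of -0.31 was -0.12 without S1pr2-/- replicate 2. All 3 alpha class genes overlapped. The mu class genes are close paralogs, so 1 transcript may bind the probes of several, and the share of signal from cross-hybridization was not tested.

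**Figure D4:**
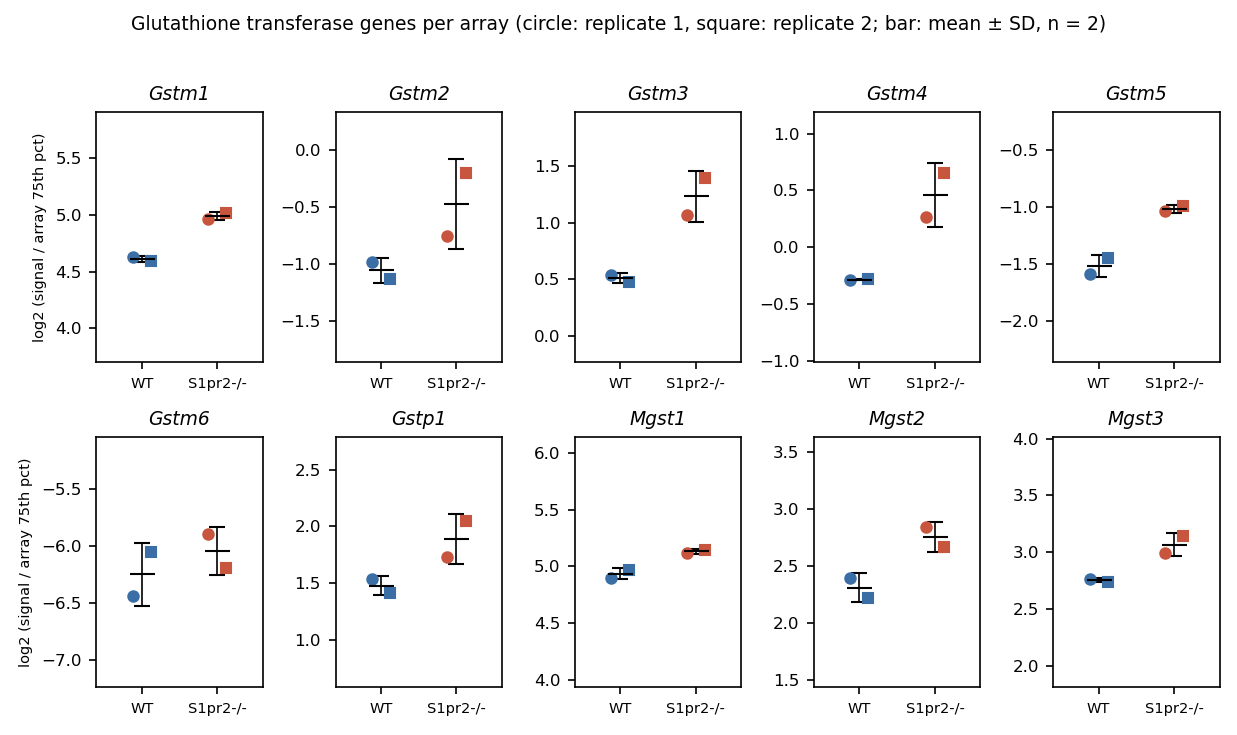
Values of 10 glutathione transferase genes on each array (log2 of signal over the 75th percentile of the array), with the mean and SD of 2 arrays per genotype; each panel has its own axis, all spanning the same range. The arrays labelled S1pr2-/- lie above the wild-type arrays in 9 of the 10 panels, Gstm6 being the exception.

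In the thioredoxin and peroxiredoxin system 4 of 6 members were higher on both arrays labelled S1pr2-/- and 1 was lower (against 22.2% and 21.9% of all genes), the 4 by less than 0.2. Txnrd1, thioredoxin reductase, read 3.51 and 3.44 against 3.62 and 3.65, a difference of 0.16 ± 0.061 (SE). Srxn1, sulfiredoxin, which repairs overoxidized peroxiredoxins, differed by 0.15, Prdx1 by 0.12 and the mitochondrial and peroxisomal Prdx5 by 0.16. The second probe of Prdx1 gave 0.30. Thioredoxin itself, Txn1, differed by -0.0063 with overlapping arrays. Prdx6, which also has a phospholipase activity that turns over surfactant lipid, read 3.92 and 3.85 against 3.80 and 3.78. It was lower on both arrays by its brightest probe, with a difference of -0.10, but the other 3 probes gave between -0.01 and 0.03.

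Among superoxide dismutases and catalase the groups differed little. Sod2, the mitochondrial enzyme, read 5.01 and 4.92 in wild-type and 4.85 and 4.84 in the arrays labelled S1pr2-/-, lower on both with a difference of -0.11 ± 0.065 (SE). Cat, which breaks down hydrogen peroxide, read 1.45 and 1.30 against 1.58 and 1.59, higher on both with a difference of 0.20 ± 0.079 (SE). The dimmer probe of Cat gave 0.46. Cytosolic Sod1 and extracellular Sod3 overlapped, with differences of 0.03 and 0.22.

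The metallothioneins, small cysteine-rich proteins that bind zinc and copper, did not separate the genotypes. Mt1 read 6.90 and 6.90 in wild-type and 6.85 and 7.13 in the arrays labelled S1pr2-/-. Mt2 read 5.87 and 5.93 against 5.71 and 6.49. In both genes the close pair of wild-type values lay between the values of the other genotype, and the differences were 0.09 ± 0.122 and 0.20 ± 0.309 (SE). Both turned below 0 without S1pr2-/- replicate 2, to -0.047 and -0.19.

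Metallothionein genes are switched on through metal response elements bound by MTF1. The core TGCNCNC lay in 15 of the 34 member windows (44.1%), against 53.6% of 27025 genes. The narrower forms TGCACNC and TGCGCNC, all of which also match TGCNCNC and which were chosen after the wider form was searched, lay in 7 of the 34 (20.6%), against 28.2%. The 250 bases before the start of both metallothionein genes are shown because both genes were highest on the same array, with matches to the narrower forms on either strand in capitals.
Mt1 (chr8:94178839-94179088, plus strand): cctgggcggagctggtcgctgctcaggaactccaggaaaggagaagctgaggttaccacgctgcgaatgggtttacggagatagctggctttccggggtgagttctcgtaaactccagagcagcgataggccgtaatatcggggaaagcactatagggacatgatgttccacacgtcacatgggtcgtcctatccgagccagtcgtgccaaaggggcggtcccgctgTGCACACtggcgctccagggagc
Mt2 (chr8:94172368-94172617, plus strand): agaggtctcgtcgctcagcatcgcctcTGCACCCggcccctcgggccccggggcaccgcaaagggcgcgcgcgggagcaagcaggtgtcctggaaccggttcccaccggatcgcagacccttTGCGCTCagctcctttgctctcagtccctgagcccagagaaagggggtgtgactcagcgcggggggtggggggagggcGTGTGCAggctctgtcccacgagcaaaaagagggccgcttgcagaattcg

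Mt1 held 1 match in this stretch and Mt2 held 3. Both held further matches to the narrower forms in the transcribed bases of their windows, which are not shown. Counted over the whole window, 3 of the 34 members (Mt1, Mt2 and Gclm) held 3 or more such matches, against 2.27% of 27025 genes.

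The spread of Mt2 between the arrays labelled S1pr2-/- was shared by a few other members, at a share near that of all genes. They were more than 0.5 apart for 4 members, Sqstm1, Hamp, Mt2 and Hmox1 (9.76% of 41, against 8.62% of all genes). In all 4, replicate 2 was above replicate 1, by 0.84, 0.81, 0.78 and 0.67. For Hamp, replicate 2, at -5.81, lay between the wild-type values, and replicate 1, at -6.63, was near the floor of the scale. The wild-type arrays were more than 0.5 apart for Gpx3 and Osgin1 (4.88% of members, against 7.79% of all genes).

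**Figure D5:**
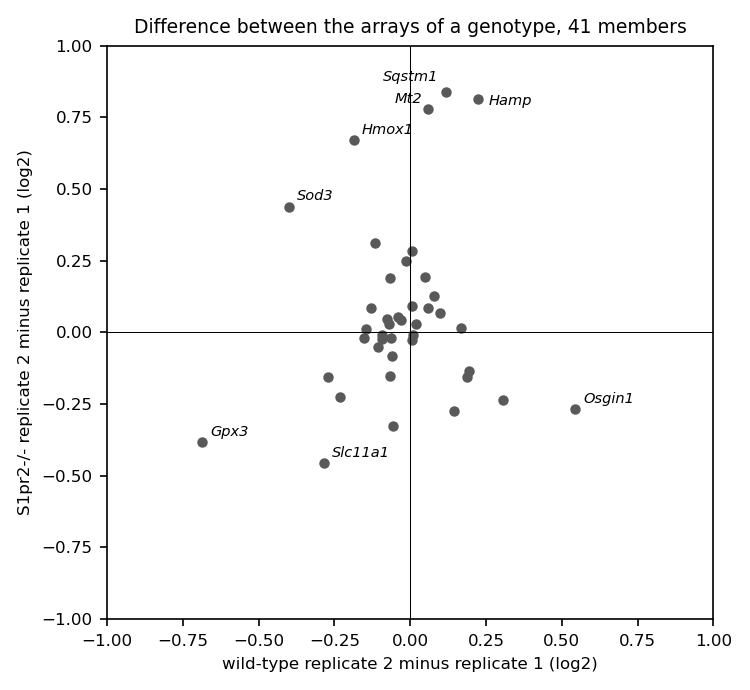
Difference between the arrays of a genotype for the 41 members (log2, replicate 2 minus replicate 1), wild-type on the horizontal axis and arrays labelled S1pr2-/- on the vertical axis. Sqstm1, Hamp, Mt2 and Hmox1 sit at the top, above 0.5, while most members lie near the centre.

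Hmox1 was the member of heme breakdown with this spread. It encodes heme oxygenase-1, which releases iron from heme and is induced by NRF2, and it read 3.61 and 3.42 in wild-type and 3.15 and 3.82 in the arrays labelled S1pr2-/-. The wild-type values again lay between the others, and the difference of -0.03 had an interval from -0.87 to 0.81, wide enough to hold a 1.5-fold change in either direction. Its values without an array were -0.36 without S1pr2-/- replicate 2 and 0.31 without S1pr2-/- replicate 1. Blvra encodes a biliverdin reductase that makes bilirubin from the product of that reaction. Blvra read 2.91 and 2.78 against 2.98 and 3.06, a difference of 0.17 ± 0.081 (SE). Blvrb overlapped, with a difference of 0.16.

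Of the 7 members of iron storage and transport, 2 were higher on both arrays labelled S1pr2-/- (against 22.2% of all genes). By the brightest probe 1 was lower (against 21.9%), and 4 overlapped. The median difference of the 7 was -0.035. The 2 higher ones were genes of exporters of metal from macrophage compartments, and the storage and uptake genes differed little. Slc40a1, ferroportin, the exporter of iron from the cell, read 0.76 and 0.49 in wild-type and 1.12 and 0.97 in the arrays labelled S1pr2-/-. The groups were apart, with a difference of 0.42 ± 0.133 (SE), an unadjusted p of 0.046 and an adjusted p of 0.519 in limma. The unadjusted p was under 0.05 in 12 of the 18 settings. It was 0.125 without wild-type replicate 2, where the difference was 0.28, 0.189 without S1pr2-/- replicate 1 and 0.103 without S1pr2-/- replicate 2. Slc11a1, which pumps iron and manganese out of the phagosome of macrophages, read 1.21 and 0.92 against 1.93 and 1.47. Its groups were also apart, by 0.64 ± 0.217 (SE), and the difference ran from 0.41 without S1pr2-/- replicate 1 to 0.87 without S1pr2-/- replicate 2.

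The ferritin chains differed little. Fth1, the heavy chain, read 7.33 and 7.43 against 7.31 and 7.37, with overlap and a difference of -0.04. Ftl1, the light chain, read 7.20 and 7.25 against 7.07 and 7.15 by its brightest probe. Both arrays were lower, with a difference of -0.11, but its other probe, at 6.94 and 6.99 against 7.05 and 7.15, was higher on both by 0.13, so no direction is given for Ftl1. Tfrc, the transferrin receptor, and Slc11a2, the importer of ferrous iron, overlapped with differences of -0.10 and -0.03, and the dimmer probe of Slc11a2 gave 0.24. Hamp, which encodes hepcidin, the hormone that removes ferroportin from the surface, was dim: it read -5.94 and -5.71 in wild-type and -6.63 and -5.81 in the arrays labelled S1pr2-/-. Its difference of -0.39 ± 0.334 (SE) rested on 1 array, and it was -0.80 without S1pr2-/- replicate 2 and 0.01 without S1pr2-/- replicate 1.

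Blmh, the enzyme that inactivates bleomycin, was measured well above background in every array and differed little. It read -0.07 and -0.14 in wild-type and -0.07 and 0.11 in the arrays labelled S1pr2-/-. The groups are counted as not overlapping only because the lower array labelled S1pr2-/- was above the higher wild-type array by less than the printed digits show. The difference was 0.13 ± 0.094 (SE), with a 95% interval from -0.16 to 0.41 and an adjusted p of 0.682 in limma. That interval does not reach 1.5-fold, which is 0.58 on this scale, in either direction. The difference itself ran from 0.033 to 0.22 with 1 array left out.

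A wider list of 115 genes of the same pathways, which holds none of the 41 but does hold the other transferase genes described above, gave 103 tested genes. Of these, 35 were higher on both arrays labelled S1pr2-/- (against 22.2% of all genes), 16 were lower (against 21.9%) and 52 overlapped, and the median difference was 0.07. At an unadjusted p under 0.05 in limma, 8 were higher (against 4.56% of all genes) and 3 lower (against 5.96%), with 0 past an adjusted p under 0.05. The transferases made up 17 of the 103 genes, 10 of the 35 and 6 of the 8. Over the other 86 genes, 25 were higher (29.1%), 15 lower (17.4%) and 46 overlapped, and 2 were higher (2.33%) and 3 lower (3.49%) at that unadjusted p.

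By list, 11 of 26 genes of glutathione metabolism and transferases were higher and 3 lower, and 7 of 13 genes of NADPH supply and detoxification were higher and 1 lower. Among 18 genes of the thioredoxin, peroxiredoxin and glutaredoxin systems 4 were higher and 7 lower. Of 27 iron and heme genes 8 were higher and 2 lower, and of 8 genes of the NRF2 family, small Maf proteins and repressors 1 was higher and 1 lower. Of 7 genes of metallothionein control and zinc 3 were higher and 1 lower, and of 4 ferroptosis genes 1 was higher and 1 lower. The shares of all genes tested were 22.2% higher and 21.9% lower. The lists were not tested against each other.

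Outside the transferases, and among genes whose groups did not overlap, the largest difference upward was that of Htatip2, an oxidoreductase and NRF2 target, at -0.93 and -3.10 in wild-type against -0.86 and -0.81. The low wild-type replicate 2 array alone made it, since the difference of 1.18 was 0.092 without that array. The largest downward were Ggt1, the ectoenzyme that breaks down extracellular glutathione, at -0.78, Heph, a copper ferroxidase, at -0.52, and the stress protein gene Sesn3 at -0.37. Ggt1 and Heph each had 1 array labelled S1pr2-/- at the floor of the scale, so their size is not measured there. Sesn3 read -1.24 and -1.35 against -1.59 and -1.75, with close replicates and groups apart.

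The cells behind these values were labelled alveolar macrophages, and all 8 alveolar macrophage markers listed, among them Marco, Siglecf, Car4 and Pparg, were well above background on all 4 arrays. The sum of the 8, in multiples of the 75th percentile, was 510 and 561 in wild-type and 507 and 538 in the arrays labelled S1pr2-/-. Of the 8, 2 were higher on both arrays labelled S1pr2-/- (Fabp4 by 0.58 and Pparg by 0.21). Another 2 were lower (Car4, -0.28, and Siglecf, -0.15), and 4 overlapped. The sum is weighted toward the brightest markers, Ear2 and Marco, which both overlapped. Among all genes tested, 22.2% were higher and 21.9% lower, which holds beside the marker counts below too. Of 5 eosinophil markers 4 were tested and all 4 were lower, with a sum of 2.09 and 6.63 against 0.123 and 0.196, a level 27.3-fold lower; Epx was well above background on 1 of the 2 arrays labelled S1pr2-/- and Prg3 on neither. Of 7 tested markers of monocyte-derived macrophages 4 were higher on both arrays (C1qa, C1qb, C1qc and Cx3cr1). Itgam was lower, with a difference of -0.17, and the other 2, Ccr2 and Apoe, overlapped. The median difference of the 7 was 0.58, and the sums were 125 and 55.7 against 138 and 89.2. Apoe, the brightest of them, read 6.16 and 3.74 in wild-type against 6.04 and 5.14. No probe was named for another marker of that list, Ly6c2.

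Of 6 tested erythroid markers 3 were higher and 0 lower. All such counts here stand beside 22.2% higher and 21.9% lower over all genes tested. Erythroid sums over the list were 103 and 67.4 against 99.1 and 111, and Epb42 was above background on no array. Neutrophil sums were 84.0 and 93.9 against 67.7 and 58.9, with 5 of 6 tested markers lower, and T cell sums were 17.0 and 18.5 against 15.2 and 11.2, with 4 of 7 lower. Epithelial sums were 45.4 and 53.9 against 40.1 and 64.9, with 5 of 9 markers lower and 0 higher, and dendritic cell sums 10.9 and 13.6 against 9.65 and 9.42, with 2 of 6 lower. The mean B cell sum was 1.93-fold lower on the arrays labelled S1pr2-/-, with all 5 markers overlapping. That fold rested on wild-type replicate 1, the highest array. The sum of wild-type replicate 2, at 0.502, lay between the 0.636 and 0.456 of the arrays labelled S1pr2-/-. For mast cells and basophils 1 of 5 markers was tested and overlapped, and the sums were 0.191 and 0.260 against 0.261 and 0.220. The part of these cell differences in the members' values was not tested.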

How the data were processed

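The authors deposited the scanner output of the 4 arrays, in which Agilent Feature Extraction gives every spot an intensity with the local background already subtracted (version 10.7.3.1 per the labels, 11.0.1.1 per the file headers). Their own normalized log2 values, also deposited, lay within 0.01 of log2 of the processed signal over the 75th percentile, centered on the wild-type arrays, for 99.6% of 39429 probes, and were used as an alternative.

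Here the processed signal was divided by the 75th percentile of its array (2489 to 2817 intensity units), floored at 0.01 and put on the log2 scale. Outlier spots (115 to 273 per array) were dropped, spots of a probe averaged, and 0 spots were saturated. A probe entered the test with a value on every array and a signal well above background on both arrays of 1 genotype or more (27158 probes). On each array, 67.5% to 72.1% of probes were well above background. The genotypes were compared with limma (version 3.58.1, R 4.3.3; lmFit, eBayes) and Benjamini-Hochberg adjustment over all probes tested. Accessions gave a name in RefSeq (GRCm38.p6) to 69.6% of probes; coordinates of the array design, which uses another build, were not used.

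Named are all 41 members, the 4 lowest and 4 highest of the other pathway genes whose groups did not overlap, marker genes in counts, and S1pr2; the other transferase genes were chosen after their values were seen. The members and lists were chosen with earlier results of these data known. The script was tested on simulated data. Alternatives changed the normalization (quantile; cyclic loess; percentile of detected probes), the background correction (normexp, offset 50, on the median spot signal), the source (the authors' table), the floor, the filter (none; all arrays detected), the outlier flags, the variance trend, the test (that of the methods), a replicate block, the probe rule (mean of a gene's probes) and the arrays (each left out). Counts of members without overlap were added to these after the data were seen.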

Additional observations from a re-analysis of the deposited data

How the results depend on the processing

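Of the 41 members, 26 kept the sign of their difference under every alternative, each array left out included, and 0 members passed an adjusted p under 0.05 under any of them. Where leaving out an array leaves 1 of its genotype, that one is assumed to vary like the others. The small number of arrays, and the floor for the dim Hamp, Ggt1 and Heph, limit what can be told.

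The count of members higher at an unadjusted p under 0.05 was 4, and it was 7 with normexp correction, 8 with a trended variance, 8 with the mean over all probes of a gene and 6 without the filter. With 1 array left out it lay between 2 (without wild-type replicate 2) and 7 (without S1pr2-/- replicate 1). The count lower at that p lay between 0 and 1, the 1 being Hamp without S1pr2-/- replicate 2. The median over the members lay between 0.044 (without S1pr2-/- replicate 2) and 0.136. The count of members lower on both arrays labelled S1pr2-/-, 4, was 2 with normexp correction, 2 with the mean over probes, and between 5 and 11 with 1 array left out. The count of those higher, 18, lay between 20 and 25 with 1 array left out. The causes were not tested, except that leaving out an array makes overlap rarer in all genes.

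Signs turned for members near 0. Under quantile normalization Fth1 was 0.023, Nfe2l2 -0.0017 and Txn1 0.047. Under cyclic loess Fth1 was 0.0054, Keap1 -0.0076 and Txn1 0.020. With the percentile over detected probes Txn1 was 0.0024, and Hamp, Ggt1 and Heph were 0, at the floor in all arrays. With normexp Keap1 was -0.0067 and Txn1 0.047, and in the authors' table Slc7a11 was -0.00047. With the mean over probes Ftl1 was 0.011, Hmox1 0.047 and Slc11a2 0.10.

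With 1 array left out, differences lay between -0.085 and 0.014 for Fth1, -0.068 and 0.10 for Gpx1, -0.12 and 0.15 for Gsr, -0.012 and 0.18 for Gsto1, -0.80 and 0.012 for Hamp, -0.36 and 0.31 for Hmox1, -0.011 and 0.017 for Keap1, -0.047 and 0.24 for Mt1, -0.19 and 0.59 for Mt2, -0.14 and 0.18 for Nfe2l2, -0.11 and 0.044 for Slc11a2, -0.012 and 0.013 for Slc7a11, -0.19 and 0.00024 for Tfrc, and -0.053 and 0.040 for Txn1.

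The replicate numbers of the labels are not said to mark a shared animal or day, so the numbers were not taken as pairs. Over the probes tested, the deviations of wild-type and S1pr2-/- replicate 1 from their genotype means correlated at 0.187. With 2 arrays per genotype, replicate 2 gives the same value by construction, so this value cannot decide whether the numbers mark pairs. With the replicate number as a block, 5 members were higher and 0 lower at an unadjusted p under 0.05, 0 passed the adjusted threshold, and the median was 0.12.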
